A study of Mus musculus with 6 samples.

Results

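Chemokine receptors are the receptors by which T cells read chemokine gradients and so find their way into lymph nodes, follicles, skin, gut and inflamed tissue. The 9 genes described here, Ccr4, Ccr6, Ccr7, Ccr8, Ccr9, Cxcr3, Cxcr4, Cxcr5 and Cx3cr1, were chosen by name as the chemokine receptors best known in T cells, out of 25759 gene identifiers in the table. All 9 were found, and 8 of them reached the mean level of 1 FPKM needed for testing. Ccr9 did not and is given as values only. FPKM scales fragments to transcript length and to the depth of the library, so levels of different genes can be set side by side.

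The cells were aTreg, adaptive regulatory T cells: CD4 T cells activated with TGF-beta that carry Foxp3, the transcription factor of regulatory T cells. Lymph node and spleen cells of C57BL/6 mice aged 8 to 12 weeks were kept for 3 days in 2 µg/ml of the T cell mitogen ConA, with 3 ng/ml of TGF-beta and 10 ng/ml of IL-2. CD4+ cells carrying the Foxp3 GFP reporter, which both groups of mice express, were then sorted. The 3 wild type (WT) libraries were from normal B6 mice. The 3 BMPR1a-deficient libraries were from BMPR/CD4cre mice, in which a Cre driven by Cd4 removes the type I bone morphogenetic protein (BMP) receptor BMPR1a in CD4 and CD8 T cells before they leave the thymus. The question the comparison asks is which transcripts differ when aTreg lack this receptor. The sorted cells can include regulatory T cells that had Foxp3 already in the mouse. Whether each library is a separate animal or culture is not stated. The p-values therefore reflect how far these samples vary among themselves, and that variation may be technical.

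Depth was estimated from the smallest steps in the FPKM values at about 30900000 to 38500000 fragments per library. Bmpr1a was at 1.39, 2.34 and 1.31 FPKM in WT, against 0.439, 0.720 and 0.691 in BMPR1a-deficient libraries. BMPR1a-deficient replicate 1 stood apart from the other 5 libraries: its 13 mitochondrially encoded transcripts summed to 5335 FPKM. The sum was 44657 and 44713 FPKM in BMPR1a-deficient replicates 2 and 3 and 50442 to 53789 in WT. It was thus lower in every BMPR1a-deficient library. Of the 13 transcripts, 9 were lower without overlap, against 10.4% of all tested genes. In limma 0 of them had an unadjusted p under 0.05, against 15.2%. The part of this mitochondrial difference in the receptor results was not tested. BMPR1a-deficient replicate 1 also had the lowest value of its group for 7 of the 9 receptor genes. It had the highest for Ccr6 and Cx3cr1, so results that rest on it are given without it as well. The 8 markers of CD4 T cells, Cd4, Cd3e and Foxp3 among them, summed to 2992 to 3065 FPKM in WT. In BMPR1a-deficient libraries the sum was 2731 to 3008. Of the 8, 2 were lower without overlap (Cd3g and Cd28) and 0 higher, against 10.4% and 15.9% of all tested genes. None had an unadjusted p under 0.05 in limma. In bulk RNA of this kind, fewer cells that carry a receptor and less RNA per cell cannot be told apart.

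Chemokine receptors are membrane-spanning proteins that signal through inhibitory G proteins, chiefly Gi. Ligand binding frees the G protein subunits, which drive PI3 kinase gamma, Rac and integrin activation, after which RGS proteins, receptor kinases and arrestins end the signal. CCR7 brings naive and central memory T cells into lymph nodes and CXCR5 brings follicular T cells into B cell follicles. CCR4 and CCR8 are known on skin-homing and regulatory T cells, CCR6 on Th17 and many regulatory T cells, CCR9 on gut-homing cells and CXCR3 on Th1 cells. CXCR4 reads CXCL12 in bone marrow and lymphoid stroma. CX3CR1, the receptor for the membrane-bound chemokine fractalkine (CX3CL1), is best known on monocytes, microglia, NK cells and effector T cells.

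Of the 8 receptor genes tested, 1 passed the threshold: Cx3cr1 rose in BMPR1a-deficient aTreg, with a mean 8.31 times the WT mean. None passed as lower. Ccr6, Ccr8 and Cxcr4 had means 2.36, 2.14 and 1.82 times those of WT, with every BMPR1a-deficient library above every WT library, but none of these differences passed the threshold (limma adjusted p = 0.0709, 0.192 and 0.213). Of the 8 genes 4 had an unadjusted p under 0.05, against 15.2% of all tested genes, and 7 had a positive fold change, against 55.5%. Across all 13413 genes tested, 1.07% passed the threshold, 0.746% as higher and 0.321% as lower. The groups did not overlap, with BMPR1a-deficient higher, for 4 of the 8 tested receptor genes, against 15.9% of all tested genes. They did not overlap in the other direction for 0 of the 8, against 10.4%. The median log2 fold change of the 8 tested receptor genes was 0.50, against 0.04 over all tested genes. Cx3cr1 reached the filter only through its BMPR1a-deficient level, and the receptor genes were chosen with earlier results of these data known. These figures over the tested receptor genes are therefore a description. Without BMPR1a-deficient replicate 1, Cx3cr1 and Cxcr4 passed as higher (2 of 8, against 0.999% of tested genes), and 5 of the 8 did not overlap and were higher, Ccr7 now among them, against 28.1%. The untested Ccr9 did not overlap either without that library. In an exact permutation test each of the 4 genes without overlap reached a two-sided p of 0.1, which is as low as 3 against 3 libraries can go.

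**Figure D1:**
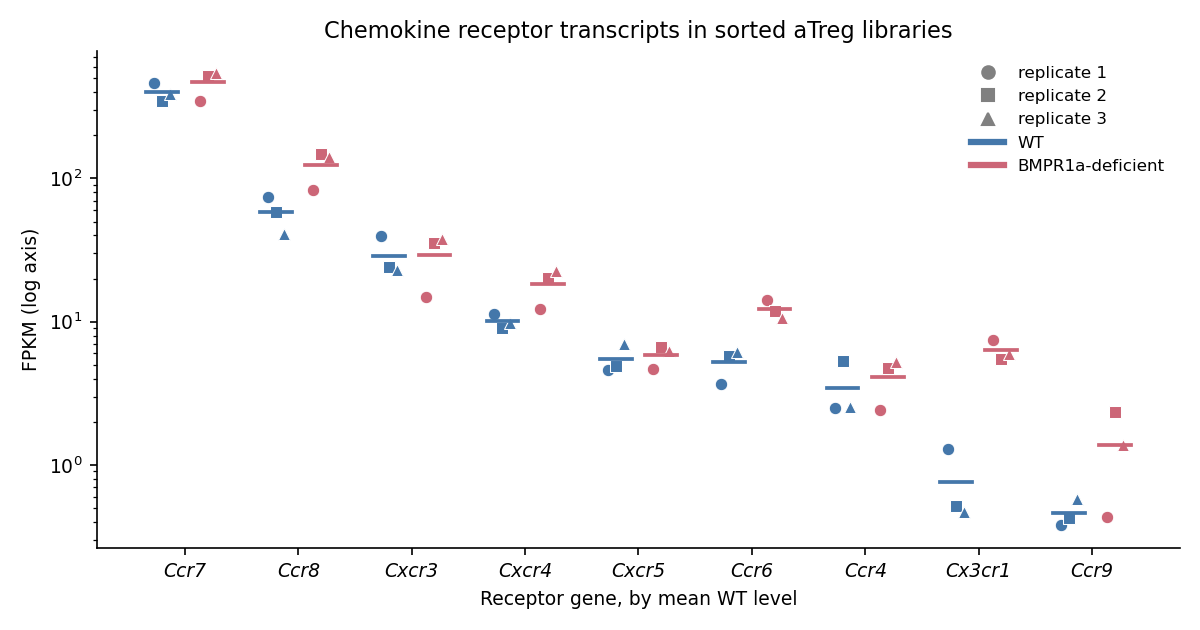
FPKM of the 9 receptor genes on a log axis, ordered by mean WT level; circles, squares and triangles are replicates 1, 2 and 3 of WT (blue) and BMPR1a-deficient aTreg (red), and bars are group means. The red points lie wholly above the blue ones for Ccr8, Cxcr4, Ccr6 and Cx3cr1, and Cx3cr1 goes from 0.760 to 6.32 FPKM on average.

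The promoters of the 4 genes whose groups did not overlap are shown because BMP receptors act through SMAD transcription factors, whose short recognition sequence, the SMAD box CAGAC, is marked in capitals on either strand. Sequences are from RefSeq on GRCm38.p6, 250 bases before to 50 bases after a gene's start, written 5′ to 3′ on the gene's own strand. The table held such windows for 7 of the 9 genes, not for Ccr7 and Cxcr5. They lie at chr9:120068247-120068546 (minus strand) for Cx3cr1, chr9:120091883-120092182 (plus) for Ccr8, chr17:8235793-8236092 (plus) for the first of 2 Ccr6 starts and chr1:128592250-128592549 (minus) for Cxcr4.
Cx3cr1: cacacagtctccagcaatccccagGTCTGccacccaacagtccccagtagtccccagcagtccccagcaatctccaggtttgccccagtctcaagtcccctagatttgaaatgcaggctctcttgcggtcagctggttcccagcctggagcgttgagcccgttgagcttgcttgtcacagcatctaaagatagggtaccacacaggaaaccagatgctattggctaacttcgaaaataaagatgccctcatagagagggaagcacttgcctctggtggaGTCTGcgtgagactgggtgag
Ccr8: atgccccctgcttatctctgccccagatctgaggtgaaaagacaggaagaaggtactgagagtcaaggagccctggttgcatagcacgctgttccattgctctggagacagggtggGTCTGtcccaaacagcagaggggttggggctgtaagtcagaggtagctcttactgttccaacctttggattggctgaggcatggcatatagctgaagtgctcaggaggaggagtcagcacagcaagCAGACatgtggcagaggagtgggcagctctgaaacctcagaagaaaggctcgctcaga
Ccr6: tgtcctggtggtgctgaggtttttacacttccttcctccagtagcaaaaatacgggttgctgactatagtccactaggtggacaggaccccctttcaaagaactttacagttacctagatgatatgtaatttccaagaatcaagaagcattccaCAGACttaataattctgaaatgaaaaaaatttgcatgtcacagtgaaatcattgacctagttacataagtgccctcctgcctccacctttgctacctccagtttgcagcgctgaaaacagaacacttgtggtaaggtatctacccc
Cxcr4: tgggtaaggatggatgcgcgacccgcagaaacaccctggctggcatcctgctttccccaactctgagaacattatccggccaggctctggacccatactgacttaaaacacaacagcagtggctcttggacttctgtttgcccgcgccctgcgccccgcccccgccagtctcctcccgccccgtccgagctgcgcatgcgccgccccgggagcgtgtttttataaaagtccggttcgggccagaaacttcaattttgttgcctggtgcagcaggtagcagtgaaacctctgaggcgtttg

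Cx3cr1 and Ccr8 each held 2 SMAD boxes in this window, both Ccr6 starts and Ccr9 held 1, and Ccr4, Cxcr3 and Cxcr4 held 0. A box stood in 49.6% of 32851 promoters of the same length, so a match is common. In the Ccr8 window one box begins 8 bases before the start, and in the Cx3cr1 window one lies in the transcribed part. The GC-rich BMP element GGCGCC, which also reads GGCGCC on the other strand and is found in 11.9% of promoters, was in 0 of these windows. The RUNX motif TGTGGT (both strands, 16.8% of promoters) occurred once in Cx3cr1 and in the first Ccr6 window and at 2 places in Cxcr3. The KLF motif CCACCC (31.5% of promoters) occurred once each in Cx3cr1, Ccr8 and Ccr9. In both Ccr8 and Cx3cr1 the KLF match directly adjoins a SMAD box without overlap, before the box in Ccr8 and after it in Cx3cr1. The GATA motif AGATAA (11.2%) was in Ccr8 and the second Ccr6 window, the AP-1 motif TGANTCA (7.81%) in Ccr4, and the forkhead motif TGTTTAC (3.65%) in 0 windows. These matches describe letters and are not evidence of binding.

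Cx3cr1 (ENSMUSG00000052336, GRCm38 chr9:119901616-120069879, minus strand), the fractalkine receptor gene, was at 1.30, 0.517 and 0.467 FPKM in WT, against 7.46, 5.50 and 5.99 FPKM in BMPR1a-deficient aTreg. The lowest BMPR1a-deficient library was thus well above the highest WT library, which was WT replicate 1. At the estimated depths these levels stand for roughly 74 to 180 fragments in WT, against 800 to 1200 in BMPR1a-deficient libraries. The log2 fold change on the log2(FPKM + 1) scale was 2.08 (SE 0.216, 95% interval 1.55 to 2.61, limma adjusted p = 0.0191). Adding 1 shrinks changes of so low a gene, and with 0.1 in its place the log2 fold change was 3.02. The WT mean alone lay under the filter of 1 FPKM, so Cx3cr1 was tested because it was higher in the other group. Without a filter it passed as well (limma adjusted p = 0.0421). Its call was lost without WT replicate 2 (limma adjusted p = 0.113), WT replicate 3 (0.110), BMPR1a-deficient replicate 2 (0.0629) or replicate 3 (0.0895), and held without WT replicate 1 (0.0226) or BMPR1a-deficient replicate 1 (0.0423).

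CX3CR1 is also a receptor of monocytes, macrophages and NK cells, so their markers were set beside it. The 9 macrophage and monocyte markers summed to 156, 58.2 and 75.2 FPKM in WT, against 19.3, 68.3 and 127 in BMPR1a-deficient libraries, with overlapping groups. BMPR1a-deficient replicate 1 had the lowest marker sum of all 6 libraries and the highest Cx3cr1. Within WT, replicate 1 had both the highest sum and the highest Cx3cr1. Of these markers only Fcgr1 was under 0.1 FPKM in every library. The 8 NK markers summed to 77.4 to 133 FPKM in WT, against 23.3 to 64.6 in BMPR1a-deficient libraries. Klrd1, a receptor subunit gene also expressed by T cells, made up most of this sum, at 114, 77.2 and 63.3 FPKM in WT, against 12.3, 20.9 and 36.9 in BMPR1a-deficient libraries. The NK receptor gene Klrb1c went the other way without overlap, at 0.126, 0.0727 and 0.0692 FPKM in WT, against 0.598, 0.760 and 0.648 in BMPR1a-deficient libraries. The defining NK gene Ncr1 and the NK receptor genes Klra8 and Klre1 were under 0.1 FPKM throughout. The 7 dendritic cell markers summed to 1.93 to 2.46 FPKM in WT, against 1.68 to 2.05 in BMPR1a-deficient libraries, with Clec9a, Siglech and Cd209a under 0.1 throughout. Cd8a and Cd8b1, the CD8 T cell markers, summed to 32.0 to 41.8 FPKM in WT, against 37.9 to 68.4 in BMPR1a-deficient libraries, overlapping. Cd8a alone did not overlap, at 11.7, 9.56 and 8.80 FPKM in WT, against 13.8, 17.2 and 29.1 in BMPR1a-deficient libraries (log2 fold change 0.87, limma adjusted p = 0.236). The part of macrophage, monocyte, dendritic cell, NK or CD8 T cell RNA in Cx3cr1 was not tested.

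**Figure D2:**
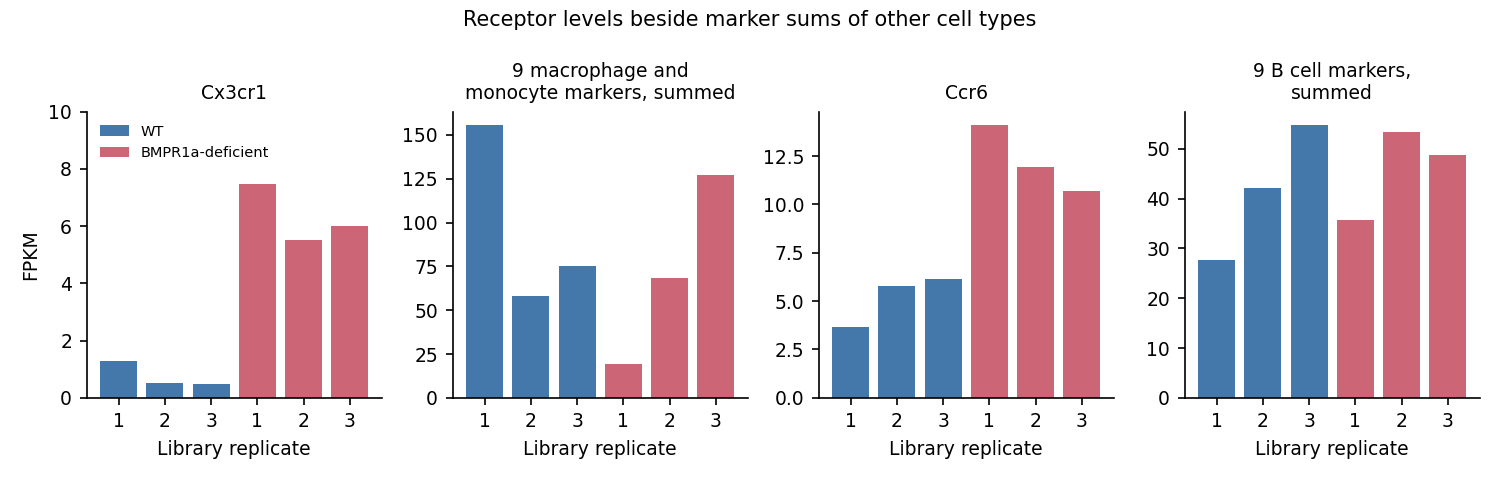
Bars give FPKM per library, replicates 1 to 3 of WT in blue and of BMPR1a-deficient aTreg in red, for Cx3cr1, the summed macrophage and monocyte markers, Ccr6 and the summed B cell markers. Cx3cr1 and Ccr6 separate the groups, while both marker sums overlap. The part of RNA of these other cell types in Cx3cr1 and Ccr6 was not tested.

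Ccr8 (ENSMUSG00000042262, GRCm38 chr9:120092114-120094906, plus strand), which encodes the receptor for CCL1 and was the second most abundant of the 9 transcripts, was at 74.5, 58.4 and 41.0 FPKM in WT, against 83.3, 147.9 and 140.3 in BMPR1a-deficient aTreg. BMPR1a-deficient replicate 1 lay close above WT replicate 1, and the other two lay far above all WT libraries. The difference was 1.08 on the log2 scale (SE 0.304, 95% interval 0.33 to 1.82, limma adjusted p = 0.192). It ran from 0.85 to 1.34 when each library was left out and did not pass in any of these fits.

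The CCR8 ligand gene Ccl1 was higher in the same libraries, at 0.714, 3.32 and 0.401 FPKM in WT, against 17.0, 19.4 and 19.5 in BMPR1a-deficient aTreg. Its groups did not overlap, and it rose by a log2 fold change of 3.17 (SE 0.418, limma adjusted p = 0.0384). That call held without WT replicate 2 and was lost without each of the other 5 libraries (limma adjusted p = 0.0741 to 0.163). It was also lost without a filter (0.0683) and with 0.1 in place of 1 added to FPKM (0.0600). Of the 14 ligand genes of these receptors, 4 were tested. Past the threshold 1 was higher (Ccl1) and 0 lower, against 0.746% and 0.321% of all tested genes. Without overlap 2 were higher, Ccl1 and Ccl25, and 0 lower, against 15.9% and 10.4%. Ccl25 was at 2.46, 2.41 and 2.20 FPKM in WT, against 2.66, 2.55 and 2.63 in BMPR1a-deficient aTreg (log2 fold change 0.11, limma adjusted p = 0.615). The median log2 fold change of the 4 was 0.12. Ccl8, the other CCR8 ligand in the mouse, was listed at 0 in all 6 libraries, as were the CCR7 ligand genes Ccl19 and Ccl21a and the CXCR5 ligand gene Cxcl13.

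Cx3cr1 and Ccr8 are neighbours on chromosome 9. Their RefSeq start sites lie 23.8 kb apart, with Cx3cr1 read from the minus strand and Ccr8 from the plus strand, so that the genes point away from each other. Their surroundings were examined after these values were seen. Of 22 genes of the table whose starts lie within 500 kb of the midpoint, 10 were tested, and Cx3cr1 was the only one past the threshold. The next gene beyond Ccr8, the mitochondrial carrier gene Slc25a38, was at 18.6, 15.1 and 15.2 FPKM in WT, against 19.1, 21.7 and 20.7 in BMPR1a-deficient libraries, without overlap but short of the threshold (log2 fold change 0.31, SE 0.115, limma adjusted p = 0.293). Wdr48, Gorasp1 and Csrnp1 overlap the annotated span of Cx3cr1, which a distant exon of a minor transcript extends, and had log2 fold changes of 0.07, 0.0073 and -0.12. Their libraries overlapped between the groups. The other tested neighbours ran from -0.06 for Eif1b to 0.79 for the small RNA gene Gm24044, whose SE was 0.708.

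**Figure D3:**
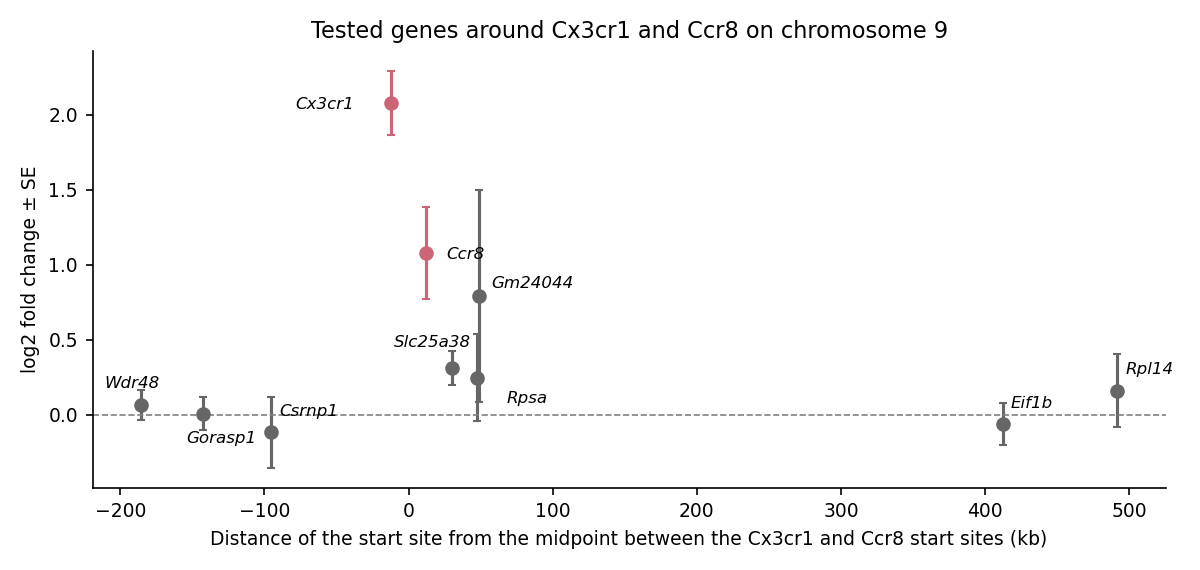
Log2 fold change (BMPR1a-deficient minus WT, points, with SE as bars) of the 10 tested genes against the distance in kb of each start site from the midpoint between the Cx3cr1 and Ccr8 start sites; the 2 receptor genes are red. Cx3cr1 at 2.08 and Ccr8 at 1.08 stand above the other genes, of which Gm24044 at 0.79 has a wide error bar.

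The position of these receptors is shared more widely. Of the 9 genes, 5 lie on chromosome 9 (Ccr4, Ccr8, Ccr9, Cxcr5 and Cx3cr1), as do 14 of the 23 chemokine receptor genes listed in all, against 5.64% of the protein-coding genes in the table. Their coding parts are alike in build: the longest coding transcript encodes 353 (Ccr8) to 378 (Ccr7) amino acids, and a single exon holds at least 94.7% of the coding bases in each. In Ccr4, Ccr6, Ccr8 and Cx3cr1 a single exon holds all of them.

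Ccr6 (ENSMUSG00000040899, GRCm38 chr17:8236043-8257141, plus strand), which encodes the receptor for CCL20, was at 3.67, 5.80 and 6.12 FPKM in WT, against 14.1, 12.0 and 10.7 in BMPR1a-deficient aTreg. WT replicate 1 was lowest and BMPR1a-deficient replicate 1 highest, and the groups were well apart. Ccr6 had a log2 fold change of 1.11 (SE 0.196, 95% interval 0.63 to 1.59, limma adjusted p = 0.0709). Among protein-coding genes alone it passed the threshold (limma adjusted p = 0.0249). It did not pass in any of the 6 fits with a library left out, where the log2 fold change ran from 0.92 to 1.23. CCR6 is also a receptor of B cells. The 9 B cell markers, Ms4a1 and Cd79a among them, summed to 27.6, 42.0 and 54.7 FPKM in WT, against 35.6, 53.3 and 48.8 in BMPR1a-deficient libraries, with overlapping groups. The 3 WT libraries had the same order for Ccr6 and for this sum, while BMPR1a-deficient replicate 1 had the highest Ccr6 and the lowest sum of its group. The part of B cell RNA in Ccr6 was not tested. Of the 7 tested B cell marker genes, 1 was higher without overlap and 0 lower, against 15.9% and 10.4% of all tested genes. This was the kinase gene Blk, at 1.22, 1.99 and 3.00 against 3.09, 3.50 and 3.65 FPKM (limma adjusted p = 0.325).

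Cxcr4 (ENSMUSG00000045382, GRCm38 chr1:128588199-128592293, minus strand), the CXCL12 receptor gene, was at 11.2, 9.07 and 9.87 FPKM in WT, against 12.3, 20.1 and 22.5 in BMPR1a-deficient aTreg. BMPR1a-deficient replicate 1 was just above the WT libraries, and replicates 2 and 3 were clearly above them. Cxcr4 had a log2 fold change of 0.77 (SE 0.228, 95% interval 0.21 to 1.32, limma adjusted p = 0.213). Without BMPR1a-deficient replicate 1 it was 1.02 and passed the threshold (limma adjusted p = 0.0398). That library decides this call, and no other library left out brought Cxcr4 past the threshold.

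Ccr7 (ENSMUSG00000037944, GRCm38 chr11:99144196-99155077, minus strand), the lymph node homing receptor gene, was by far the most abundant of the 9, at 462, 349.6 and 387 FPKM in WT, against 349, 517 and 541 in BMPR1a-deficient aTreg. BMPR1a-deficient replicate 1 was the lowest of all 6 libraries and the other two of its group were the highest, so the groups overlapped. Ccr7 had a log2 fold change of 0.21 (SE 0.216, 95% interval -0.31 to 0.74, limma adjusted p = 0.640). Cxcr5 (ENSMUSG00000047880, GRCm38 chr9:44511787-44561877, minus strand), the follicle homing receptor gene, was at 4.62, 4.88 and 6.99 FPKM in WT, against 4.68, 6.64 and 6.26 in BMPR1a-deficient aTreg. Its values overlapped almost completely, with a log2 fold change of 0.09 (SE 0.187, 95% interval -0.37 to 0.54, limma adjusted p = 0.839). For Ccr7 and Cxcr5 these intervals leave room for a modest change either way. Set beside the B cell marker sum after the values were seen, Cxcr5 had the same order over all 6 libraries. Both were lowest in WT replicate 1 (Cxcr5 4.62, sum 27.6 FPKM) and highest in WT replicate 3 (6.99 and 54.7). The part of B cell RNA in Cxcr5 was not tested.

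Cxcr3 (ENSMUSG00000050232, GRCm38 chrX:101731535-101734269, minus strand), the Th1-associated receptor gene, was at 39.7, 24.0 and 23.0 FPKM in WT, against 14.9, 35.4 and 37.5 in BMPR1a-deficient aTreg. WT replicate 1 was the highest library and BMPR1a-deficient replicate 1 the lowest, and the groups overlapped. The log2 fold change of -0.04 (SE 0.398, limma adjusted p = 0.963) had a wide 95% interval, from -1.02 to 0.93. Its direction turned without BMPR1a-deficient replicate 1 (0.37) and without WT replicate 1 (0.20), so the data give no direction for Cxcr3.

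Ccr4 (ENSMUSG00000047898, GRCm38 chr9:114490316-114504916, minus strand), the receptor gene for CCL17 and CCL22, was at 2.48, 5.27 and 2.54 FPKM in WT, against 2.42, 4.74 and 5.26 in BMPR1a-deficient aTreg. WT replicate 2 and BMPR1a-deficient replicates 2 and 3 shared the higher level, and the other 3 libraries the lower. The log2 fold change was 0.22 (SE 0.329, 95% interval -0.58 to 1.03, limma adjusted p = 0.755). Ccr9 (ENSMUSG00000029530, GRCm38 chr9:123678439-123784330, plus strand), the receptor gene for the gut chemokine CCL25, was at 0.379, 0.426 and 0.575 FPKM in WT, against 0.433, 2.33 and 1.39 in BMPR1a-deficient aTreg. Replicate 1 of the BMPR1a-deficient group lay within the WT range and the other two above it. Ccr9 was below the filter, and without one its log2 fold change was 0.63 (SE 0.312, limma adjusted p = 0.457). The annotated span of Ccr9 overlaps several other genes on both strands, among them Lztfl1, and the use of strand in the counting is not given in the sources used here. Reads of Ccr9 and of such neighbours may therefore not be separable.

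**Figure D4:**
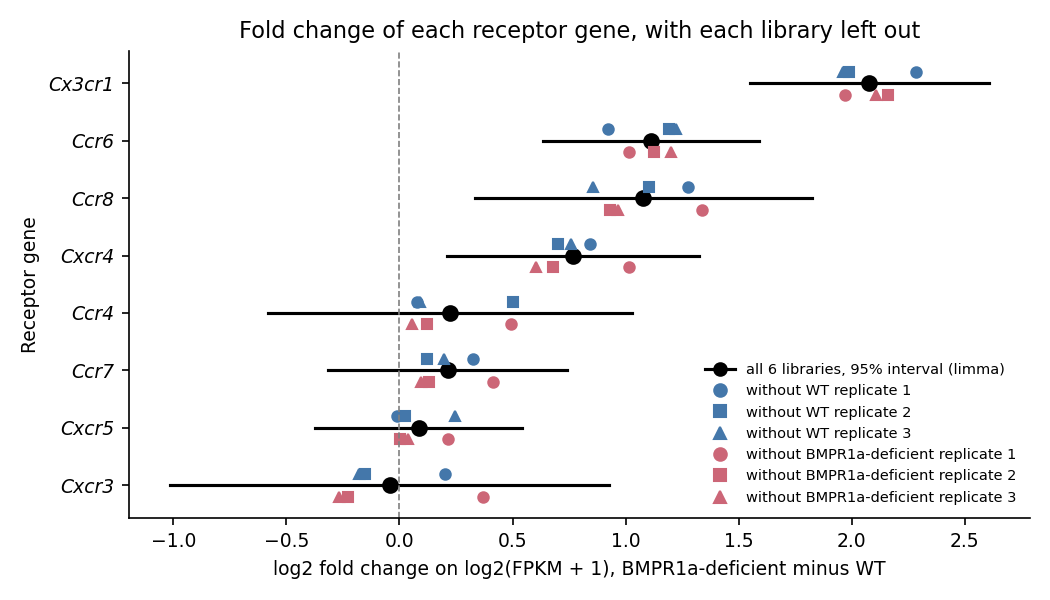
Log2 fold change on log2(FPKM + 1), BMPR1a-deficient minus WT, of the 8 tested receptor genes with all 6 libraries (black, bars are 95% intervals from limma) and with each WT (blue) or BMPR1a-deficient (red) library left out. Cx3cr1, Ccr6, Ccr8 and Cxcr4 stay above 0 in every fit drawn, while Cxcr3 lies on both sides of 0, from -0.27 to 0.37.

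In WT aTreg the order of the mean levels was Ccr7 (399 FPKM), Ccr8 (58.0), Cxcr3 (28.9), Cxcr4 (10.1), Cxcr5 (5.49), Ccr6 (5.20), Ccr4 (3.43), Cx3cr1 (0.760) and Ccr9 (0.460). The ranges of the 3 libraries overlapped between Cxcr5 and Ccr6, Ccr6 and Ccr4, and Cx3cr1 and Ccr9, so these neighbours did not differ beyond their spread. In BMPR1a-deficient aTreg the order was Ccr7 (469), Ccr8 (124), Cxcr3 (29.3), Cxcr4 (18.3), Ccr6 (12.2), Cx3cr1 (6.32), Cxcr5 (5.86), Ccr4 (4.14) and Ccr9 (1.38). Here the ranges of Cxcr3 and Cxcr4 overlapped, as did those of Cxcr4 and Ccr6, Cx3cr1 and Cxcr5, and Cxcr5 and Ccr4. By group mean the top 4 places were the same in both groups, and Cx3cr1 moved from the level of Ccr9 to that of Cxcr5. In BMPR1a-deficient replicate 1, however, Ccr6 (14.1 FPKM) was above Cxcr4 (12.3 FPKM).

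Because BMPR1a-deficient replicate 1 was low for most receptors, levels were also set against Ccr7 within each library, a ratio that no scaling of a whole library can change. The ratio was chosen after the values were seen. Ccr8 stood at 16.1%, 16.7% and 10.6% of the Ccr7 level in WT, against 23.9%, 28.6% and 25.9% in BMPR1a-deficient aTreg. Cxcr4 stood at 2.43%, 2.60% and 2.55% against 3.53%, 3.89% and 4.15%, the tightest WT values of any receptor. On this measure BMPR1a-deficient replicate 1 was near the other libraries of its group for both genes. Ccr6 and Cx3cr1 were also higher without overlap, with Ccr6 at 0.795% to 1.66% in WT, against 1.97% to 4.05% in BMPR1a-deficient aTreg. Cx3cr1 was at 0.121% to 0.281% and 1.07% to 2.14%. For these 4 genes the exact permutation test gave a two-sided p of 0.1, which only restates that the groups did not overlap. Adjusted by Benjamini-Hochberg over the receptor genes set against Ccr7, this permutation p was 0.2. The ratios of Ccr4, Ccr9, Cxcr3 and Cxcr5 overlapped between the groups. A ratio shows unequal change of its 2 genes and not which of them changed.

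**Figure D5:**
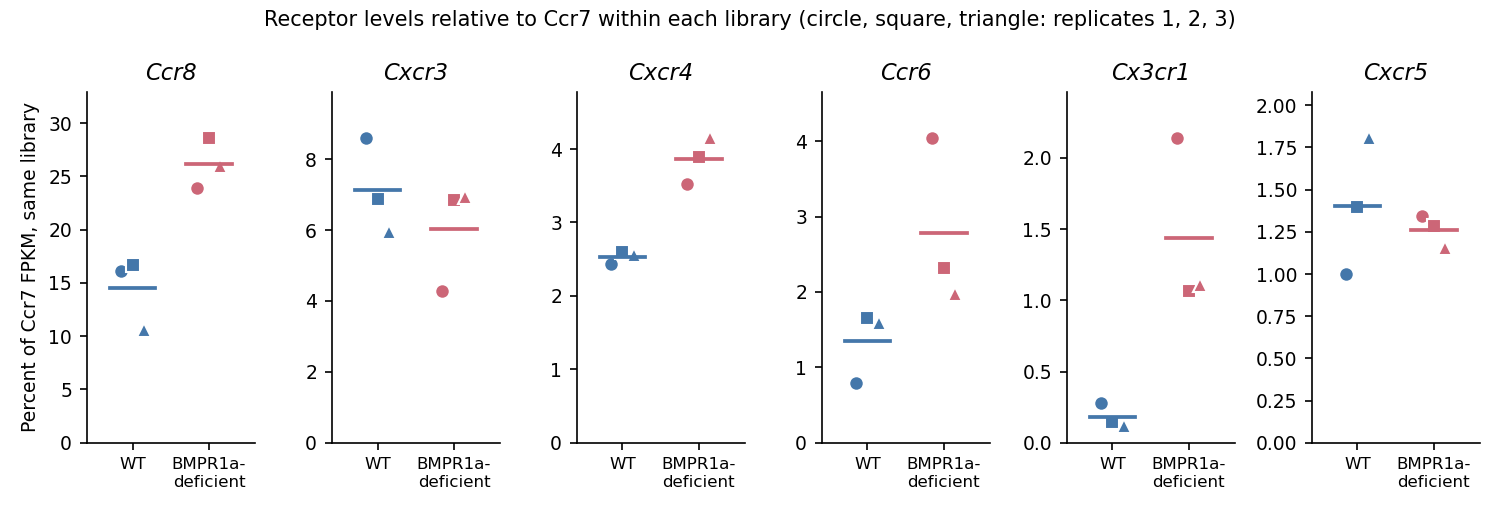
FPKM of 6 receptor genes as a percent of Ccr7 FPKM in the same library, on linear axes from 0, for WT (blue) and BMPR1a-deficient (red) replicates 1 to 3 (circle, square, triangle) with group means as bars. Ccr8, Cxcr4, Ccr6 and Cx3cr1 separate the groups, with Cxcr4 between 2.43% and 2.60% in WT and between 3.53% and 4.15% in BMPR1a-deficient aTreg; Cxcr3 and Cxcr5 overlap.

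As a share of the summed FPKM of the 9 genes, Ccr7 made up 76.3% to 81.0% in WT, against 68.8% to 71.4% in BMPR1a-deficient aTreg, and Ccr8 made up 8.59% to 12.8% and 17.1% to 19.7%. Neither pair of ranges overlapped. Shares of 1 sum are bound together, so these are not separate results. In FPKM the mean of Ccr7 was not lower, at 399 in WT and 469 in BMPR1a-deficient aTreg, with overlapping libraries. The sum itself was 512 ± 76.9 FPKM in WT, against 670.1 ± 158 in BMPR1a-deficient aTreg (SD, n = 3 per group), with overlapping libraries (exact permutation test, two-sided p = 0.2).

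The genes whose pattern over the 6 libraries was nearest to Cx3cr1 were Pde4a, Cdh1 and Rgs16, by the root mean square difference of centred log2(FPKM + 1) values (0.151, 0.175 and 0.197). Pde4a encodes a cyclic AMP phosphodiesterase and was at 2.71, 0.999 and 1.09 FPKM in WT, against 9.17, 8.07 and 7.32 in BMPR1a-deficient aTreg. Cdh1 encodes E-cadherin and was at 0.946, 0.459 and 0.279 and at 4.77, 5.46 and 5.09. Both were higher in every BMPR1a-deficient library. These genes were picked for their likeness to Cx3cr1 in the same libraries, so this is a description with no test, and Cdh1 reached the filter only through its BMPR1a-deficient level.

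Rgs16 is itself part of the chemokine pathway, since it encodes a protein that speeds the shut-off of Gi and so damps chemokine receptor signals. It was at 7.35, 7.65 and 5.10 FPKM in WT, against 34.9, 29.4 and 31.0 in BMPR1a-deficient aTreg. The groups were far apart, with a log2 fold change of 2.10 (SE 0.162, limma adjusted p = 0.00948), lost without WT replicate 2 (0.0521) or BMPR1a-deficient replicate 3 (0.0671). It was the 1 of 12 tested desensitisation genes, arrestins, receptor kinases and RGS genes, that was higher, with 0 lower. Their median was 0.03, and 5 had an unadjusted p under 0.05, against 15.2% of all tested genes. The groups did not overlap for 3 that were higher and 2 that were lower, against 15.9% and 10.4%. Of the 19 tested genes that carry the signal, from G protein subunits to Rac and Rap1, 0 passed the threshold in limma. Their median was -0.10, and 1 had an unadjusted p under 0.05, against 15.2% of all tested genes. By smallest unadjusted p these were led by Pik3cg, which encodes PI3 kinase gamma, at 11.6 ± 0.941 and 16.2 ± 0.559 FPKM (SD, n = 3, adjusted p = 0.0997 in limma). Next was Rap1b, which encodes a small GTPase that activates integrins, at 226 ± 12.0 and 172 ± 40.6 FPKM (SD, n = 3, adjusted p = 0.380 in limma).

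Of the 14 other chemokine receptor genes, 2 were tested and 0 passed the threshold in limma (0 at an unadjusted p under 0.05). They were Cxcr6, the CXCL16 receptor gene, at 2.14, 1.94 and 2.36 FPKM in WT, against 1.63, 4.71 and 3.70 in BMPR1a-deficient aTreg, and the atypical receptor gene Ccrl2, at 1.86, 0.922 and 1.71 and at 0.749, 1.93 and 2.68. Both overlapped between the groups. The untested receptor genes lay below the filter, and of these Cxcr1 was lower and Ccr10 higher without overlap. Cxcr1 was at 0.448, 0.888 and 0.737 FPKM in WT, against 0.0791, 0.271 and 0.105 in BMPR1a-deficient aTreg. Ccr10 was at 0, 0.0192 and 0 against 0.0654, 0.0368 and 0.0643, close to 0 in both groups. Of 17 other homing and exit genes, all tested, 1 was higher and 0 lower, with a median of -0.16. At an unadjusted p under 0.05 there were 9 of the 17, against 15.2% of all tested genes. The groups did not overlap for 4 that were higher and 6 that were lower, against 15.9% and 10.4% of all tested genes. The gene past the threshold was Ptger4, a receptor gene for prostaglandin E2, at 6.85, 8.59 and 6.73 FPKM in WT, against 19.2, 17.4 and 17.6 in BMPR1a-deficient aTreg (log2 fold change 1.19, SE 0.116, limma adjusted p = 0.0172). Ptger4 held without WT replicate 2 or BMPR1a-deficient replicate 1 and was lost without each of the other 4 libraries (limma adjusted p = 0.0665 to 0.110).

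Of 16 tested transcription factors tied to these receptors, 0 passed the threshold in limma and the median was -0.0061. An unadjusted p under 0.05 was found for 6, against 15.2% of all tested genes. The groups did not overlap for 4 that were higher and 5 that were lower, against 15.9% and 10.4%. Nearest to the threshold were Batf, an AP-1 family factor of activated T cells, and Rara, the retinoic acid receptor through which CCR9 is induced. Batf was at 56.2 ± 3.68 FPKM in WT, against 34.4 ± 6.90 in BMPR1a-deficient aTreg (SD, n = 3, adjusted p = 0.141 in limma), and Rara at 14.4 ± 1.59 and 19.5 ± 0.737 (adjusted p = 0.156). Both were without overlap between the groups, Batf lower and Rara higher.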

How the data were processed

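The deposited values are FPKM, 1 column per library, which the authors made from RNA-seq of total RNA. TopHat2, Cufflinks, Cuffdiff and the build GRCm38.p4 are named per the submitters' processing notes. The sources used here give no versions, settings, strand use, annotation or scaling between libraries. Without counts, count models do not apply. Symbols came from GENCODE M21 (GRCm38), which matched 24876 of 25759 identifiers. 0 columns were left unmapped.

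Genes with a mean of at least 1 FPKM over the 6 libraries entered a group fit of log2(FPKM + 1) in limma 3.58.1 (R 4.3.3). Its eBayes step used a mean-variance trend, and two-sided p-values were adjusted over all genes tested by Benjamini-Hochberg, with a threshold of 0.05. Fold changes on this scale understate those of low genes. Depth was taken from the densest low value of FPKM times length in 3536 genes with 1 annotated transcript. It ignores Cufflinks' effective length and is approximate. Gene lists are described by counts and medians, and 1 marker gene is not reported here and was left out of its list.

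The receptor genes and the lists were chosen with earlier results of these data known. The named genes are the receptors, up to 4 called genes of each list by adjusted p or, with none called, up to 2 by unadjusted p, and the 3 genes nearest each called receptor. Blk, Cd8a, Klrb1c, Klrd1, Cd3g, Cd28, Ccl25, Cxcr1, Ccr10, the genes around Cx3cr1 and listed-at-0 ligands were added after their values were seen. Among the 17 alternatives were other settings of pseudocount, filter, scaling, eBayes settings, sample weights, a replicate block, biotypes and each of 6 libraries left out.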

Additional observations from a re-analysis of the deposited data

How the results depend on the processing

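The count of 143 genes past the threshold (69.9% of them higher, 55.7% with quantile normalization) became 1240 with sample weights, which gave BMPR1a-deficient replicate 1 a weight of 0.117, 296 among protein-coding genes alone and 10 with the replicate number as a block. It was 14 to 210 with a library left out. The count of 1 receptor gene became 4 with sample weights (Cx3cr1, Ccr6, Ccr8 and Cxcr4) and 2 among protein-coding genes (Cx3cr1 and Ccr6). It was 0 in limma with a filter at a mean of 5 FPKM, which Cx3cr1 and Ccr4 do not reach, with 3 receptor genes at an unadjusted p under 0.05. With a library left out it was 0 to 2, with 3 to 5 at an unadjusted p under 0.05. Cxcr3 turned to 0.36 with sample weights, 0.20 without WT replicate 1 and 0.37 without BMPR1a-deficient replicate 1, within a range of -0.27 to 0.37. Cxcr5 turned to -0.0099 without WT replicate 1, within a range up to 0.24. The other 6 tested receptor genes kept their direction under every alternative that tested them. The cause of these changes was not tested.

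Libraries of the 2 groups share replicate numbers, but deviations from the group means correlated at only 0.0103, 0.0645 and 0.0518 between same-numbered libraries, and BMPR1a-deficient replicate 1 correlated best with WT replicate 2 (0.0284). BMPR1a-deficient replicates 2 and 3 each correlated best with the WT library of the same number. Correlations this small cannot decide whether the numbers pair the samples. With the block 0 receptor genes passed in limma (4 at an unadjusted p under 0.05), with Cx3cr1 at an adjusted p of 0.0598. Rgs16, Ptger4 and Ccl1 were not called with it either (limma adjusted p = 0.0648 to 0.108). Depth limits Ccr9 and WT Cx3cr1 most, at roughly 61 to 180 fragments a library in WT.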
